A study of Mus musculus with 41 samples.

Results

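Edn1, the gene of preproendothelin-1, was followed through 41 RNA-seq libraries of the mouse embryonic endocardial cell line MEEC. It is 1 gene of the 13886, 12984 and 13407 listed in the 3 deposited tables of signal, and it was found by its symbol and by the same Ensembl identifier, ENSMUSG00000021367, in all of them. Edn1 was selected on its signal in these same libraries, where it lay lower over cells that carry a Notch ligand and on recombinant Notch ligand than in the matching controls. Its own levels and differences are therefore given as a description, with no test.

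All 13 groups used wild-type (WT) MEEC. In the first experiment MEEC were laid over feeder layers of OP9 stromal cells at 90% confluency that expressed Dll4, Jag1 or, as the control, GFP (n = 3 libraries per group). MEEC were at 50% confluency for the 6 h co-cultures and at 25% for the 24 h co-cultures, so that time and density cannot be told apart. In the second experiment MEEC spent 24 h in 20 µM RO4929097, an inhibitor of γ-secretase, or in its vehicle DMSO, and then 6 h over GFP feeders at 50% MEEC confluency (n = 4 per group). In the third experiment MEEC grew without feeders on wells coated with recombinant DLL4-His (rDLL4) or JAG1-Fc (rJAG1), each with 20 µM RO4929097 or with DMSO, and the control wells received DMSO (n = 3 per group). These cultures ran for 38 h, of which the last 14 h were without serum. The labels do not say whether the libraries of 1 group were grown as separate cultures. The p-values hence cover the spread between these libraries only, and that spread may be technical. All groups come from 1 cell line, and whether the OP9 cells were separated from MEEC before RNA extraction is not stated in the sources used here.

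Endothelin-1 is a small secreted peptide known as a strong constrictor of vessels. Convertases of the furin type cut its precursor, endothelin-converting enzyme releases the active peptide, and the peptide acts on G protein-coupled receptors that raise calcium through phospholipase C. In chick embryos endothelin-1 from endocardial and arterial cells is known to turn heart muscle cells towards the conduction system, and in mice loss of Edn1 disturbs the pharyngeal arches and great vessels. Notch receptors are activated by ligands on neighbouring cells: γ-secretase frees their intracellular part, which acts in the nucleus with the DNA-binding factor RBPJ on targets such as the Hes and Hey repressor genes.

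On build GRCm38, Edn1 lies on the plus strand of chromosome 13 from 42301476 to 42307990. The annotation gives 1 transcript of 5 exons with 2.139 kb of exonic sequence. The coding sequence begins in exon 1 at 42301895, and the 3′ UTR in exon 5 spans 42306877 to 42307990. An antisense gene, Gm47118, shares 35 bases with the Edn1 exons. The strand setting of the counting is not given in the sources used here, and without strand the reads of both genes over those bases cannot be told apart.

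The annotated start of the gene is shown because regulators are known to act near the start of transcription. Whether the transcript begins at this base in MEEC was not tested. Start, upstream and exon 1 here are those of the annotation only. The letters come from the RefSeq promoter table of build GRCm38.p6. The first line covers chr13:42301226-42301475, up to the base before the start. The second covers chr13:42301489-42301518 in exon 1. Capitals mark matches to the searched motifs, on either strand, that lie wholly within a line.
Edn1 upstream: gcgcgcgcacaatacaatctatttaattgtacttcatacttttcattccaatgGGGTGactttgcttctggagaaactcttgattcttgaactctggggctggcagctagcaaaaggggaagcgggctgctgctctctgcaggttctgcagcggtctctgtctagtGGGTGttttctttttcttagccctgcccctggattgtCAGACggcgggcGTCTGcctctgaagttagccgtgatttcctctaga
Edn1 exon 1: tctggctgCACGTtgcctgtGGGTGACTAA
The window of 300 bases that holds both lines was searched on both strands. The RBPJ core TGGGAA had 0 matches, and 25.6% of the windows of 32817 annotated starts held it. The HES and HEY site CACGNG also had 0 matches, against 27.5% of windows with it. An AP-1 match, TGACTAA, lay at 42301512 to 42301518 (motif TGACTNA, in 13.9% of windows), and it overlapped a KLF match by 2 bases. The KLF motif CACCC had 3 matches (57.5% of windows), the SMAD motif CAGAC 2 (49.6%), and the HIF motif ACGTG 1 (19.6%). A GATA match to AGATAA (11.2% of windows) lies at 42301484 to 42301489, so that its last base is the first letter of the second line, in lower case. The TATA box TATAAA had 0 matches (13.6%). These are descriptions of letters, not of bound sites, and 0 matches say only that the letters are not in this window.

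Depth was 14.1 to 16.8 M reads per library (M, mega) over the feeders, 19.4 to 25.2 M in the inhibitor co-cultures and 11.2 to 34.2 M on recombinant ligand. Edn1 had 150 to 1168 reads in a library, far above the limit that a count of 0 allows at 3 reads (a signal of 0.0859 to 0.266 over all libraries). These limits cover counting error only. In the third experiment DMSO library 3 stood apart for Edn1, and not for Edn1 alone. Its root mean square log2 deviation from its group mean was 0.229, the largest of the 41 libraries. DMSO 1 and 2 had 0.137 and 0.167. Tek had a signal of 46.8 in it, against 97.1 and 99.9 in DMSO 1 and 2, and Hey2 10.8 against 4.43 and 4.71. The Edn1 levels relative to DMSO and the likeness ranks are given with and without it. Other values and calls against DMSO include it unless stated. Of 15 endothelial and endocardial markers 10, 9 and 9 were listed in the 3 tables, and Pecam1, Cdh5, Tie1, Emcn and Erg are not among the genes analysed here. Of 15 OP9 stromal markers 11 were listed, with a summed signal of 5146 to 8851 in the first experiment and 5430 to 8570 in the third, which had no OP9 cells. The collagen genes Col1a1 and Col3a1 made up 93.3% to 95.4% of that sum in the first and 95.9% to 97.2% in the third. Among the others, chosen after their values were seen, Vcam1 had a signal of 157 to 298 in the first experiment and 58.9 to 120 in the third, and Pdgfrb 2.91 to 9.98 and 0.946 to 3.40, in tables normalised separately. The part of OP9 RNA in the feeder results was not tested. Of 10 cardiomyocyte markers 6 were listed in the first experiment, with a summed signal of 43.8 to 79.1 over Dll4 feeders at 24 h, 21.4 to 32.9 over Jag1 feeders and 29.5 to 33.2 over GFP feeders. Myh7, a myosin heavy chain of heart muscle, had 265, 96 and 98 reads over Dll4 feeders at 24 h, against 0, 0 and 2 over GFP feeders. At 6 h it had 0, 2 and 86 reads over Dll4 feeders, against 0, 1 and 0 over GFP feeders. Hbb-bs, a listed blood marker, had 75, 16 and 27 reads over Dll4 feeders at 24 h and 0, 0 and 16 at 6 h. It had 0 reads in every GFP feeder library of the first experiment, and 5 to 34 in the third experiment. In the other experiments 2 of the 10 cardiomyocyte markers were listed. In bulk RNA, fewer cells of a type and less RNA per cell cannot be told apart.

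Over ligand feeders Edn1 was lower than over GFP feeders at both times, and it was lowest over Jag1. At 24 h its signal was 19.2, 21.9 and 21.6 over Dll4 feeders and 15.9, 16.5 and 14.9 over Jag1 feeders, against 35.5, 33.2 and 31.9 over GFP feeders. The ranges of these 3 groups did not overlap. The means were 20.9 ± 1.45 over Dll4, 15.8 ± 0.781 over Jag1 and 33.6 ± 1.83 over GFP (SD, n = 3 each), so that Edn1 stood at 62.3% of the GFP mean over Dll4 and at 47.1% over Jag1. On the log2(signal + 1) scale the differences from GFP were −0.66 ± 0.12 for Dll4 and −1.04 ± 0.12 for Jag1 (SE). By this measure 54 of 13886 genes lay lower than Edn1 in the Dll4 comparison and 13 in the Jag1 comparison. Both comparisons share the same GFP libraries. The summed cardiomyocyte markers given above were higher in the Dll4 libraries than in the Jag1 and GFP libraries at 24 h, and their part in the Edn1 level was not tested.

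At 6 h the signal was 13.6, 18.3 and 14.1 over Dll4 feeders and 12.2, 14.3 and 10.5 over Jag1 feeders, against 21.5, 25.4 and 19.2 over GFP feeders. Every ligand library lay below every GFP library, while the Dll4 and Jag1 ranges overlapped. The means were 15.3 ± 2.61 over Dll4, 12.4 ± 1.90 over Jag1 and 22.0 ± 3.13 over GFP (SD, n = 3 each). Dll4 library 3, at 14.1, is the one with 86 Myh7 reads given above. The part of such reads in the Edn1 level was not tested. The log2 difference from GFP was −0.50 ± 0.12 for Dll4 and −0.79 ± 0.12 for Jag1 (SE). Taken by library number, the 3 differences for Jag1 ran from −0.81 to −0.77, a narrower range than those for Dll4, from −0.62 to −0.42. With any 1 library left out, the fitted difference stayed between −0.89 and −0.68 for Jag1 and between −0.62 and −0.39 for Dll4.

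Between the ligands Edn1 was higher over Dll4 than over Jag1 feeders. The log2 difference was 0.38 ± 0.12 at 24 h (SE), where the groups did not overlap, and 0.29 ± 0.12 at 6 h, where they did. By library number the differences were 0.26, 0.39 and 0.50 at 24 h and 0.15, 0.34 and 0.39 at 6 h, each of them higher over Dll4.

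**Figure D1:**
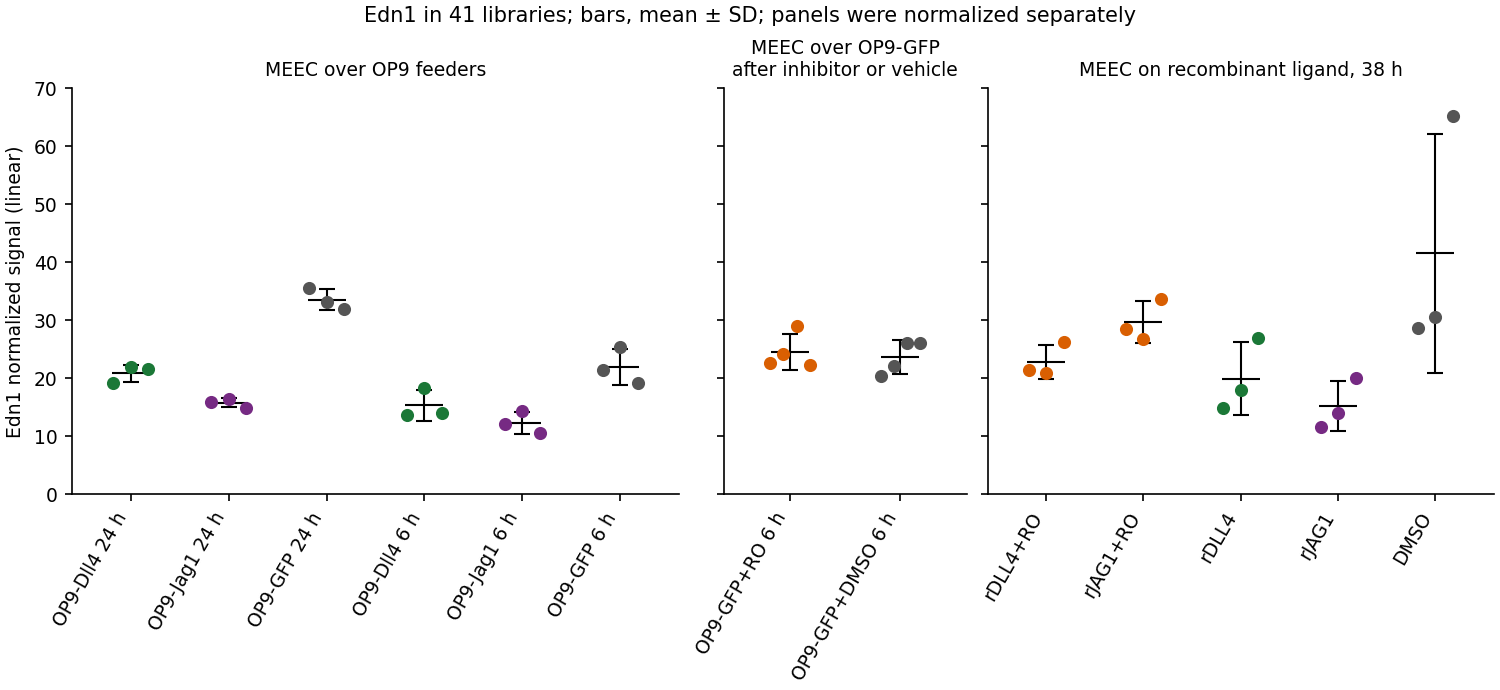
Edn1 signal (linear, in the authors' normalised units, vertical axis) in each library of the 13 groups, with 1 panel per deposited table; points are libraries and bars are group means with SD. The Jag1 feeder libraries at 24 h sit between 14.9 and 16.5 and the GFP feeder libraries between 31.9 and 35.5, and a DMSO library of the recombinant-ligand experiment stands alone at 65.3.

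Edn1 was higher at 24 h than at 6 h over every feeder. The log2 difference was 0.43 over Dll4 feeders, 0.34 over Jag1 feeders and 0.59 over GFP feeders, and the times did not overlap over any of the 3. As a share of the 6 h mean, the 24 h mean was 136% over Dll4, 128% over Jag1 and 152% over GFP. The log2 difference from GFP at 24 h minus that at 6 h was −0.16 ± 0.17 for Dll4 and −0.25 ± 0.17 for Jag1 (SE). Cell density differed with time, as said above.

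Over GFP feeders, Edn1 after preculture in the γ-secretase inhibitor overlapped Edn1 after its vehicle. The signal was 22.6, 24.2, 29.1 and 22.3 after RO4929097, against 20.3, 22.1, 26.1 and 26.1 after DMSO. The RO4929097 library at 29.1 lay above every DMSO library. The means were 24.5 ± 3.14 after RO4929097 and 23.7 ± 2.92 after DMSO (SD, n = 4 each). The log2 difference was 0.05 ± 0.11 (SE), and by library number 3 of 4 differences were positive and 1 negative, from −0.22 to 0.15.

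On recombinant ligand Edn1 was again lower than in its control, and lowest on rJAG1. The signal was 14.9, 18.1 and 27.0 on rDLL4 and 11.6, 14.1 and 20.1 on rJAG1, against 28.8, 30.6 and 65.3 in DMSO. No ligand library reached the lowest DMSO library, but the rDLL4 and rJAG1 ranges overlapped. The means were 20.0 ± 6.25 on rDLL4, 15.3 ± 4.35 on rJAG1 and 41.5 ± 20.6 in DMSO (SD, n = 3 each). The log2 difference from DMSO was −0.96 ± 0.27 for rDLL4 and −1.32 ± 0.27 for rJAG1 (SE). Both lean on the DMSO library at 65.3. With any 1 library left out, the difference for rDLL4 ran from −1.19 to −0.59 and that for rJAG1 from −1.52 to −0.95. Without that library the DMSO mean was 29.7 ± 1.29 (SD), and Edn1 stood at 67.3% of it on rDLL4 and at 51.5% on rJAG1.

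Library number moved with the Edn1 level in this experiment, since library 3 was the highest of its group in 5 of 5 groups. Differences between libraries of the same number ran from −1.25 to −0.73 for rDLL4 against DMSO, from −1.65 to −1.06 for rJAG1 against DMSO, and from 0.33 to 0.41 for rDLL4 against rJAG1. The fitted difference between the ligands was 0.36 ± 0.27 (SE) on the log2 scale. The SEs given for Edn1 come from the fit without the library number, so a level shared by a number counts there as spread.

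**Figure D2:**
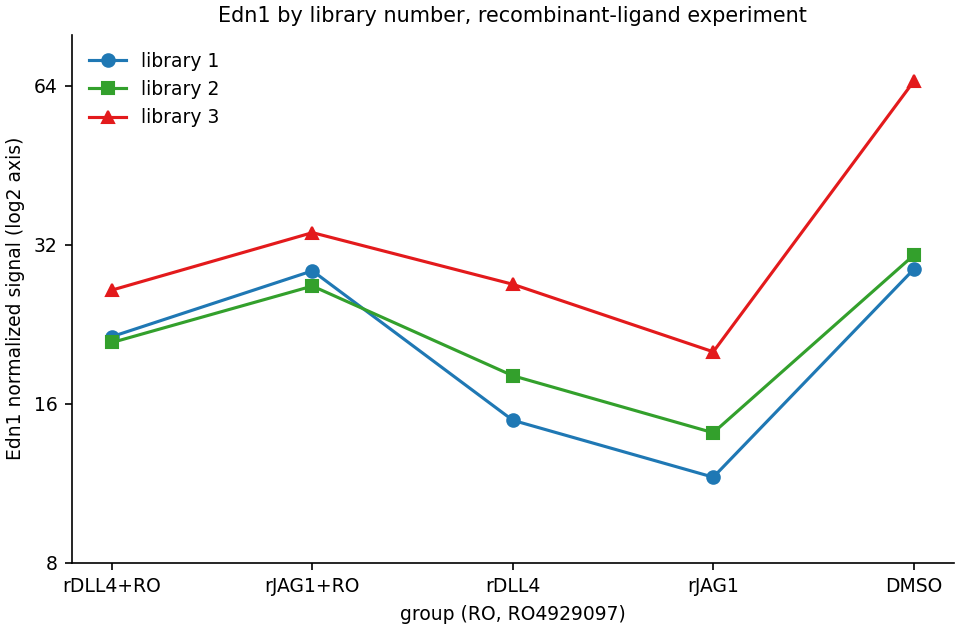
Edn1 signal (vertical axis, log scale) in the recombinant-ligand experiment, with lines that join libraries of the same number across the 5 groups on the horizontal axis. Library 3 is the highest in every group, and the rJAG1 libraries at 11.6, 14.1 and 20.1 each lie below the rDLL4 library of their number.

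RO4929097 set Edn1 apart from the ligand alone on rJAG1, while on rDLL4 the groups overlapped. With the inhibitor the signal on rJAG1 was 28.6, 26.7 and 33.8, against 11.6, 14.1 and 20.1 without it. The groups did not overlap, and the mean with inhibitor, 29.7 ± 3.64 (SD, n = 3), was 194% of the mean on rJAG1 alone, a log2 difference of 0.94 ± 0.27 (SE). On rDLL4 the signal was 21.5, 20.9 and 26.3 with the inhibitor, against 14.9, 18.1 and 27.0 without it. That mean was 22.9 ± 2.96 (SD, n = 3), and the log2 difference of 0.22 ± 0.27 (SE) had 1 of 3 library numbers negative. Whether the inhibitor's difference itself differed between the ligands was not tested. No group of this experiment had RO4929097 without ligand. A difference that the inhibitor makes without ligand hence cannot be told apart from one that needs it. Under the inhibitor, every rDLL4 library lay below every rJAG1 library, with a log2 difference of −0.36 ± 0.27 (SE). By library number these differences were −0.40, −0.34 and −0.35.

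Set against DMSO, Edn1 with inhibitor on rJAG1 differed by −0.38 ± 0.27 on the log2 scale (SE) and the groups overlapped. Without DMSO library 3 it stood at 100.1% of the DMSO mean. On rDLL4 with inhibitor it differed by −0.74 ± 0.27, with no overlap, and stood at 77.1% of the DMSO mean without that library.

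Markers of cell types moved with the inhibitor too. The summed signal of the endothelial and endocardial markers was 218 to 230 on rDLL4 with inhibitor and 197 to 220 on rJAG1 with inhibitor, against 168 to 204 on rDLL4 and 148 to 161 on rJAG1 alone, and with either ligand the groups did not overlap. Members of that list went both ways. On rJAG1 the mean of Cd34 was 56.3 with inhibitor against 35.1 alone, and that of Tek 81.9 against 48.1. Nfatc1 was lower with it, 2.25 against 5.96, as were Eng, 0.350 against 1.24, and Kdr, 8.31 against 12.6. On rDLL4 Cd34 was 58.6 against 45.2 and Tek 95.1 against 61.7. Nfatc1 was 2.01 against 5.54 there, Eng 0.344 against 0.578 and Kdr 9.64 against 12.8, where the Kdr ranges overlapped. Eng was near the counting limit, with 10, 3 and 5 reads on rDLL4 with inhibitor and 18, 9 and 5 on rDLL4 alone. Of the cardiomyocyte markers listed in this experiment, Myl7, an atrial myosin light chain, was 6.09 ± 0.623 with inhibitor against 2.79 ± 0.465 on rDLL4 alone, and rose by 0.91 on the log2 scale (limma adjusted p = 0.0061). On rJAG1 it was 5.49 ± 0.680 with inhibitor against 2.17 ± 0.598, a rise of 1.05 (adjusted p = 0.0012). Tnnt2, a troponin of heart muscle, fell with the inhibitor by 0.85 on rDLL4 (adjusted p = 0.0038) and by 0.81 on rJAG1 (adjusted p = 0.0032). Their part in the Edn1 level was not tested.

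In order of the mean, Edn1 in the first experiment went up from Jag1 at 6 h through Dll4 at 6 h, Jag1 at 24 h, Dll4 at 24 h and GFP at 6 h to GFP at 24 h. The neighbours that did not overlap were Jag1 and Dll4 at 24 h, and GFP at 6 h and at 24 h. In the third experiment, with all libraries, the order was rJAG1, rDLL4, rDLL4 with inhibitor, rJAG1 with inhibitor and DMSO. There, rDLL4 with inhibitor and rJAG1 with inhibitor were the neighbours without overlap. The tables were normalised separately, so levels are not set against each other across experiments.

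The direct Notch targets show the state of the pathway in the same libraries. Of 8 listed targets 6, 5 and 6 were measured in the 3 experiments. Here a called gene is one with a limma p below 0.05 after Benjamini-Hochberg adjustment over the whole table. At 24 h 3 of 6 targets rose over Dll4 feeders and 4 of 6 over Jag1 feeders, and 0 fell. Of all genes 0.511% were called in the Dll4 comparison and 2.02% in the Jag1 comparison. At 6 h 0 of 6 were called over Dll4 feeders (6 had an unadjusted p under 0.05, and edgeR and DESeq2 called 0) and 3 of 6 rose over Jag1 feeders. The shares of all genes called were 0.0072% for Dll4 and 0.101% for Jag1 at 6 h. With the library number as a block, 2 of 6 rose over Dll4 feeders at 6 h, where 7 of all genes were called in place of 1. The 3 calls over Jag1 feeders at 6 h were lost with only the compared groups in the fit, and each was kept in 1 of 6 fits without 1 library. Hey1 (limma adjusted p = 0.032) reached 0.14 and Hey2 (0.02) reached 0.11, and both were lost without GFP 1, GFP 3 or any Jag1 library. Nrarp (0.025) reached 0.15 and was lost without any GFP library, Jag1 1 or Jag1 3.

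Hey1, a repressor of the Hairy family, had a signal of 4.45, 4.3 and 6.69 over Dll4 feeders and 9.73, 8.57 and 11.3 over Jag1 feeders at 24 h, against 1.74, 1.70 and 2.14 over GFP feeders. All ligand libraries were above all GFP libraries, and Jag1 was above Dll4. Hey1 rose by 1.09 on the log2 scale over Dll4 (limma adjusted p = 0.0072) and by 1.92 over Jag1 (adjusted p = 1e-05). Hey2, a related repressor, rose by 0.86 over Dll4 (adjusted p = 0.0076, and up to 0.078 without Dll4 1 or GFP 3) and by 1.13 over Jag1 (adjusted p = 0.00041). Nrarp, a feedback inhibitor of Notch, rose by 1.77 over Dll4 (adjusted p = 0.014, and up to 0.1 without Dll4 1, GFP 2 or GFP 3) and by 2.25 over Jag1 (adjusted p = 0.00098). For Hes1, the log2 difference at 24 h was 0.49 over Dll4 (adjusted p = 0.062, and 0.00062 with the library number as a block) and 0.42 over Jag1 (adjusted p = 0.063, and 0.00068 with the block).

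After RO4929097 over GFP feeders 4 of 5 targets fell, against 0.909% of all genes called, while the Edn1 ranges after RO4929097 and DMSO overlapped. Hes1 had 19.7, 22.8, 25.3 and 27.4 after RO4929097, against 43.5, 51.3, 41.7 and 44.5 after DMSO. The groups did not overlap, and Hes1 fell by 0.90 on the log2 scale (limma adjusted p = 0.0029). Nrarp fell by 0.82 (adjusted p = 0.0068) and Hey2 by 0.64 (adjusted p = 0.011, and 0.052 without DMSO 3). Hey1 fell by 0.70 (adjusted p = 0.049), a call that was lost without any 1 of the 8 libraries, with an adjusted p of 0.055 to 0.14.

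On recombinant ligand 5 of 6 targets rose on rDLL4 and 5 of 6 on rJAG1, and with RO4929097 5 of 6 fell on each ligand. The shares of all genes called were 3.5% for rDLL4 and 9.58% for rJAG1 against DMSO, and 10.7% and 18.4% for the inhibitor on rDLL4 and on rJAG1. Hey1 was 5.89 ± 0.640 on rDLL4 and 16.0 ± 3.05 on rJAG1, against 0.772 ± 0.0376 in DMSO (SD, n = 3 each). With the inhibitor it was 0.751 ± 0.0989 on rDLL4 and 0.586 ± 0.152 on rJAG1. Hey1 was lower on rDLL4 than on rJAG1 by −1.29 on the log2 scale (limma adjusted p = 0.0012), and 2 of 6 targets were lower there (4 of 6 with the library number as a block), against 0.231% of all genes called. With the block 118 of all genes were called in that comparison, in place of 31. Hey1 with inhibitor overlapped its DMSO range on rDLL4 and lay below it on rJAG1, while Edn1 with inhibitor on rDLL4 lay below every DMSO library.

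**Figure D3:**
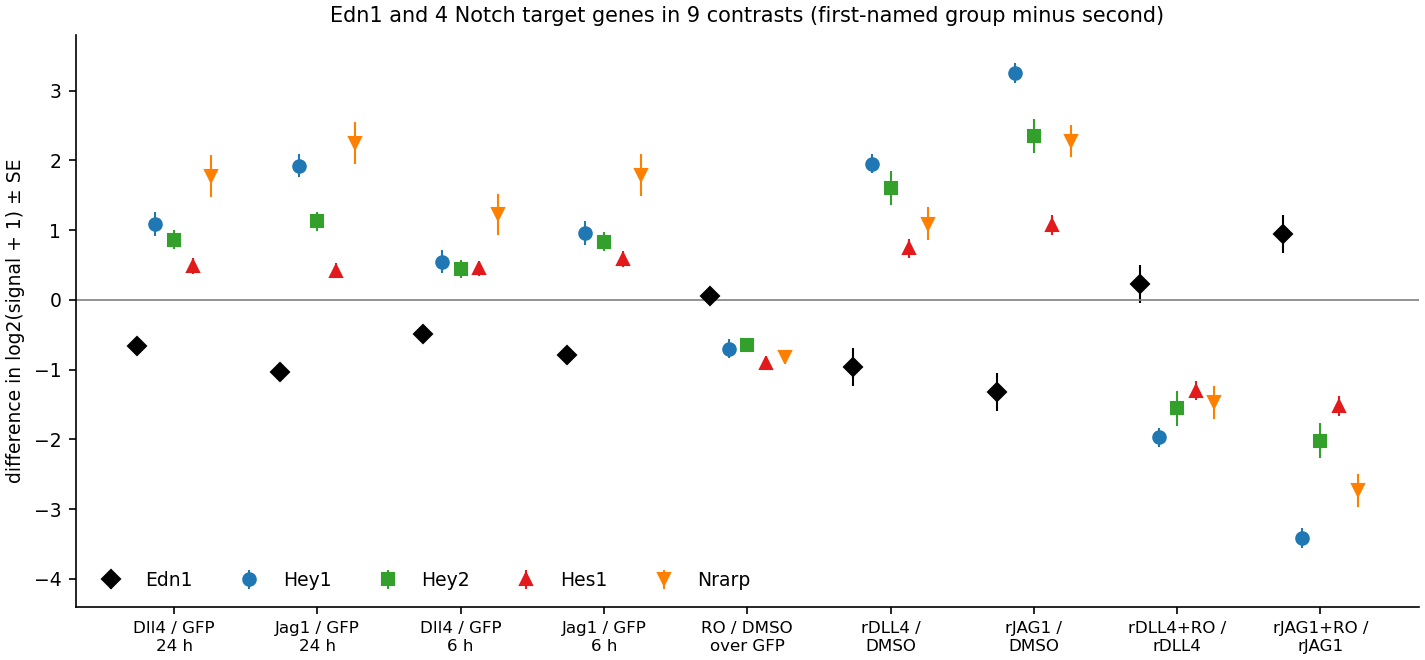
Mean log2 differences, in log2(signal + 1), of Edn1 and of the Notch targets Hey1, Hey2, Hes1 and Nrarp in each comparison, with SE. Where Hey1 is at 1.92 over Jag1 feeders at 24 h, Edn1 is at −1.04, and in the inhibitor comparison over GFP feeders Hes1 is at −0.90 and Edn1 at 0.05.

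Of the endothelin system 41 genes other than Edn1 were listed by role, and 32, 31 and 29 of them were measured. The receptor genes Ednra and Ednrb and the ligand gene Edn3 are not among the genes analysed here. Over Dll4 feeders at 24 h 0 of 32 were called, against 0.511% of all genes (7 at an unadjusted p under 0.05, edgeR 0, DESeq2 1), and 1 fell with the library number as a block. Over Jag1 feeders at 24 h 1 rose and 1 fell, against 2.02% of all genes called, and 3 rose and 2 fell with the block. The block called 247 of all genes over Dll4 feeders in place of 71, and 628 over Jag1 feeders in place of 281. At 6 h 0 were called by limma, edgeR or DESeq2 over Dll4 or Jag1 feeders, and 0 had an unadjusted p under 0.05. After RO4929097 over GFP feeders 0 of 31 were called, against 0.909% of all genes (1 at an unadjusted p under 0.05, edgeR and DESeq2 0).

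On recombinant ligand 1 of 29 rose and 2 fell on rDLL4, and 4 rose and 3 fell on rJAG1 (7 rose and 4 fell on rJAG1 with the block). The shares of all genes called were 3.5% on rDLL4 and 9.58% on rJAG1. With the block 2022 of all genes were called on rJAG1, in place of 1285. The median log2 difference of the 29 was 0.06 on rDLL4 and 0.09 on rJAG1, beside 0.00 over all genes in both. With the inhibitor 4 rose and 3 fell on rDLL4 (5 rose and 5 fell with the block), and 5 rose and 5 fell on rJAG1, against 10.7% and 18.4% of all genes called. The block called 2315 of all genes for the inhibitor on rDLL4, in place of 1430. Between rDLL4 and rJAG1 0 were called (4 at an unadjusted p under 0.05, edgeR 0, DESeq2 2), and 2 were higher on rDLL4 with the block. The block called 118 of all genes there, in place of 31.

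Edn2, the other endothelin ligand gene measured, was low throughout. Per kilobase of exon, its level over GFP feeders at 24 h was a signal of 1.43, against 15.7 for Edn1, and in DMSO 1.24 against 19.4 (13.9 for Edn1 without DMSO library 3). At 24 h Edn2 had 8, 13 and 10 reads over Dll4 feeders and 4, 16 and 4 reads over Jag1 feeders, against 31, 30 and 28 over GFP feeders. All ligand libraries were below the GFP libraries. The mean signal was 0.744 ± 0.162 over Dll4, 0.576 ± 0.485 over Jag1 and 2.08 ± 0.229 over GFP (SD, n = 3 each). Edn2 fell over Jag1 feeders by 1.01 on the log2 scale (limma adjusted p = 0.014), and for Dll4 the difference was −0.82 (adjusted p = 0.1, and 0.013 with the block). The Jag1 call was lost in 4 of 6 fits without 1 library (GFP 1, GFP 2, Jag1 1 or Jag1 3), where the adjusted p reached 0.09.

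Among the processing enzymes Pcsk5, a proprotein convertase of the furin family, changed most on recombinant ligand. Its signal was 32.2, 29.0 and 30.1 on rDLL4 and 25.6, 18.2 and 21.5 on rJAG1, against 52.7, 50.9 and 52.7 in DMSO. With inhibitor it was 68.6, 68.8 and 65.7 on rDLL4 and 72.4, 68.0 and 65.1 on rJAG1. No pair of these groups with and without ligand or inhibitor overlapped. Pcsk5 fell by 0.76 on the log2 scale on rDLL4 (limma adjusted p = 0.00026) and by 1.23 on rJAG1 (adjusted p = 8.3e-07). It rose with the inhibitor by 1.13 on rDLL4 (adjusted p = 1.6e-06) and by 1.62 on rJAG1 (adjusted p = 1.6e-08), and all 4 calls held without any 1 library. Between rDLL4 and rJAG1 the difference was 0.48 (adjusted p = 0.053, and 0.0096 with the block).

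Over feeders Pcsk5 differed less: by −0.40 over Jag1 feeders at 24 h (limma adjusted p = 0.15) and by 0.27 after RO4929097 over GFP feeders (adjusted p = 0.19). At 24 h against 6 h over GFP feeders Pcsk5 rose by 1.01 (adjusted p = 9.1e-05). That contrast called 19.2% of all genes and 4 endothelin-system genes up and 3 down.

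Pcsk6, another convertase, was 101 ± 10.1 on rJAG1 and 138 ± 11.5 in DMSO (SD, n = 3 each) and fell by 0.45 on the log2 scale (limma adjusted p = 0.0011). With the inhibitor on rJAG1 it was 127 ± 3.53 and rose by 0.34 (adjusted p = 0.0065). Furin itself was 49.3 ± 2.65 on rJAG1 and 41.3 ± 3.46 in DMSO, a rise of 0.25 (adjusted p = 0.038) that was kept in 2 of 6 fits without 1 library. It was lost without DMSO 2, DMSO 3, rJAG1 1 or rJAG1 3, with an adjusted p of up to 0.12.

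Ece1, the endothelin-converting enzyme, was measured at a level per kilobase above that of Edn1 over GFP feeders at 24 h, 24.2 against 15.7. It had 147, 121 and 129 on rJAG1, against 124, 109 and 104 in DMSO, and the ranges overlapped. The log2 difference was 0.23 ± 0.08 (SE; limma adjusted p = 0.095, and 0.015 with the block). Mme, the gene of neprilysin, which breaks down endothelins, rose with the inhibitor on rJAG1, 34.8 ± 3.52 with it against 20.4 ± 4.68 without it, by 0.76 on the log2 scale (adjusted p = 0.0018). On rDLL4 Mme rose by 0.59 (adjusted p = 0.017), a call kept in 3 of 6 fits and lost without rDLL4 2, rDLL4 3 or rDLL4 with inhibitor 1, where the adjusted p reached 0.08.

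**Figure D4:**
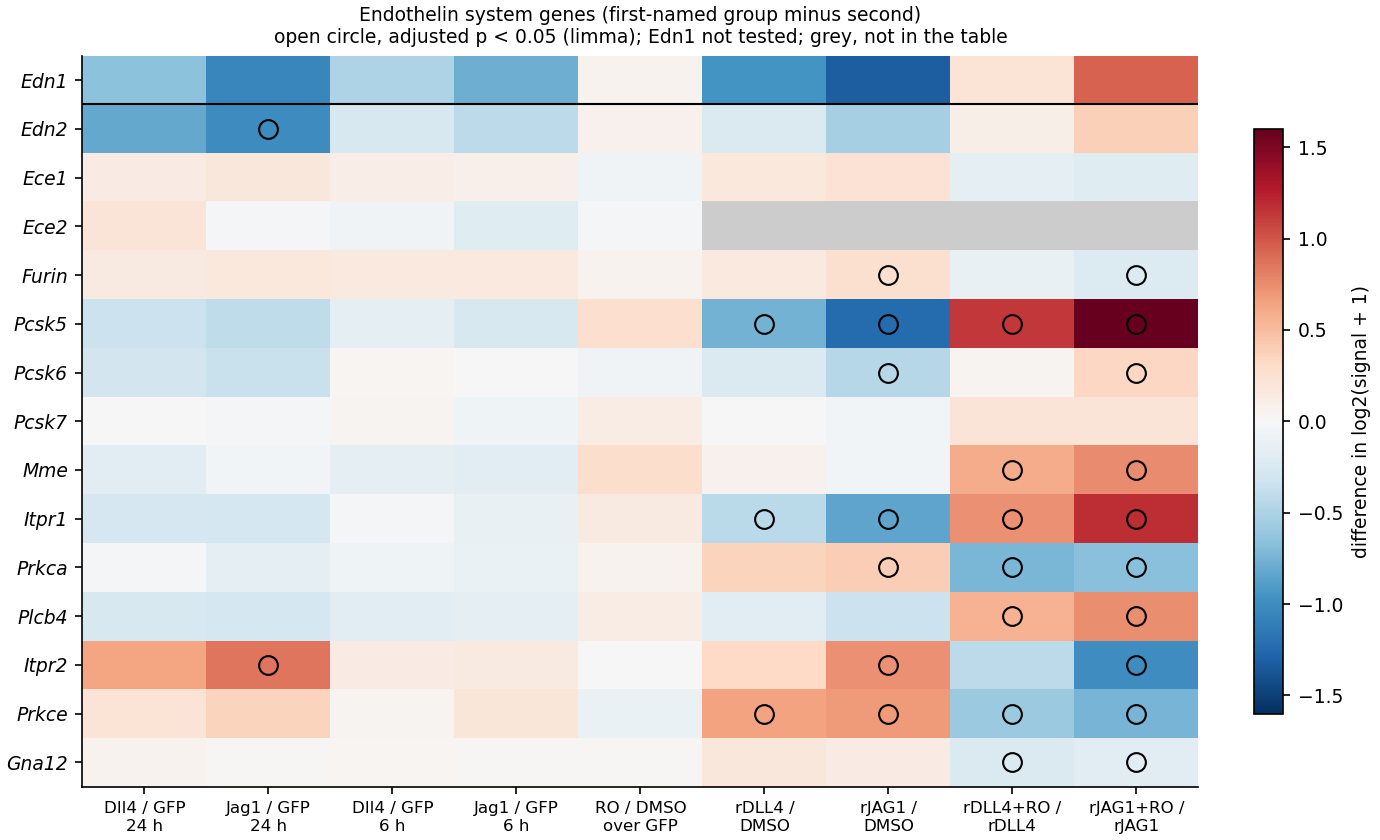
Colour map of the log2 difference, in log2(signal + 1), of Edn1, the other measured ligand and enzyme genes and the called effector genes of the endothelin system (rows) in 9 comparisons (columns); open circles are limma calls, grey cells were not in the table, and Edn1 was not tested. Pcsk5 has the same sign as Edn1 on recombinant ligand, at −1.23 on rJAG1 and 1.62 with the inhibitor on rJAG1, and Itpr2 the opposite one on rJAG1, at 0.74.

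Among the genes that act after the receptors, Itpr1, an inositol trisphosphate receptor that releases calcium, had the largest called differences of them on rJAG1, both against DMSO and with the inhibitor. It had 121, 134 and 121 on rDLL4 and 98.7, 83.8 and 99.8 on rJAG1, against 175, 181 and 152 in DMSO. The ligand groups lay wholly below DMSO. Itpr1 fell by 0.84 on the log2 scale on rJAG1 (limma adjusted p = 1.1e-05) and by 0.43 on rDLL4 (adjusted p = 0.01, lost without rDLL4 1, rDLL4 3 or DMSO 2, where it reached 0.056). With the inhibitor it rose by 0.73 on rDLL4 (adjusted p = 4.7e-05) and by 1.18 on rJAG1 (adjusted p = 1.8e-07).

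Itpr2, a second gene for such a channel, went the other way at a low level. On rJAG1 it was 3.08 ± 0.306, against 1.45 ± 0.179 in DMSO, and it rose by 0.74 on the log2 scale (limma adjusted p = 0.012). With the inhibitor on rJAG1 it fell by 0.99 (adjusted p = 0.00073). Over Jag1 feeders at 24 h it was 3.00 ± 1.14, against 1.14 ± 0.244 over GFP feeders, a rise of 0.86 (adjusted p = 0.019) that was lost without GFP 1, GFP 3, Jag1 1 or Jag1 3, with an adjusted p of up to 0.13. The protein kinase C genes Prkca and Prkce fell with the inhibitor: Prkca by 0.73 on rDLL4 (adjusted p = 0.00029) and by 0.67 on rJAG1 (adjusted p = 0.00032), and Prkce by 0.75 on rJAG1 (adjusted p = 0.0041). Plcb4, a phospholipase C, rose with the inhibitor by 0.74 on rJAG1 (adjusted p = 0.00058).

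Of 25 listed regulators of Edn1 transcription 24 were measured in each experiment. Over Jag1 feeders at 24 h 0 rose and 2 fell, against 2.02% of all genes called. Over Dll4 feeders at 24 h 0 were called by limma, edgeR or DESeq2 (8 had an unadjusted p under 0.05). At 6 h 0 were called by any of the 3 tools over Dll4 feeders (3 at an unadjusted p under 0.05) or Jag1 feeders (2). With the library number as a block 1 fell over Dll4 feeders at 24 h, 1 over Jag1 feeders at 6 h and 1 on rDLL4. The block called 247, 82 and 868 of all genes in these comparisons, in place of 71, 14 and 469. On rDLL4 0 were called (3 at an unadjusted p under 0.05, edgeR 0, DESeq2 1), and on rJAG1 4 rose and 2 fell, against 3.5% and 9.58% of all genes called. With the inhibitor 2 rose and 2 fell on rDLL4 (2 rose and 6 fell with the block), and 2 rose and 7 fell on rJAG1, against 10.7% and 18.4% of all genes called. The block called 2315 of all genes for the inhibitor on rDLL4, in place of 1430. The median log2 difference of the list on rJAG1 was 0.11, beside 0.00 over all genes.

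Vezf1, a zinc finger factor known to activate the EDN1 promoter in human cells, moved in the same direction as Edn1. At 24 h it had 97.6, 90.1 and 90.6 over Dll4 feeders and 87.1, 84.3 and 86.1 over Jag1 feeders, against 108, 113 and 106 over GFP feeders. All ligand libraries lay below the GFP libraries. Vezf1 fell over Jag1 by 0.34 on the log2 scale (limma adjusted p = 0.01, and 0.066 without GFP library 2), and for Dll4 the difference was −0.23 (adjusted p = 0.2, and 0.029 with the block). On rJAG1 it was 85.9 ± 6.30, against 123 ± 12.5 in DMSO (SD, n = 3 each), and it fell by 0.51 (adjusted p = 0.00032). On rDLL4 the difference was −0.27 (adjusted p = 0.067, and 0.033 with the block). With the inhibitor Vezf1 rose by 0.35 on rDLL4 (adjusted p = 0.0064) and by 0.62 on rJAG1 (adjusted p = 2.7e-05).

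Klf4, a Krüppel-like factor, was the other regulator called over Jag1 feeders and the 1 called after the inhibitor over feeders, and it is named after its values were seen. It was 47.4 ± 3.37 over Jag1 feeders at 24 h and 63.6 ± 2.89 over GFP feeders, and it fell by 0.42 (limma adjusted p = 0.014, and up to 0.083 without GFP 2, Jag1 1 or Jag1 2). After RO4929097 it was 113 ± 7.66, against 87.5 ± 7.93 after DMSO, a rise of 0.37 (adjusted p = 0.049) that was lost without any 1 library, with an adjusted p of up to 0.15.

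Of the 7 AP-1 genes on the list, whose motif lies in the exon 1 stretch above, 2 rose and 0 fell on rJAG1. With the inhibitor on rJAG1 0 rose and 5 fell. The shares of all genes called in these comparisons were 9.58% and 18.4%. On rDLL4 0 were called, and with the inhibitor on rDLL4 0 rose and 1 fell, against 3.5% and 10.7% of all genes. Junb was 37.0 ± 7.28 on rJAG1 and 23.9 ± 5.40 in DMSO and rose by 0.61 on the log2 scale (limma adjusted p = 0.013, and up to 0.066 without DMSO 1 or rJAG1 2). With the inhibitor it fell by 0.85 on rDLL4 (adjusted p = 0.0011) and by 1.15 on rJAG1 (adjusted p = 4.1e-05). Jund was 119 ± 17.3 on rJAG1 and 85.0 ± 7.10 in DMSO and rose by 0.47 (adjusted p = 0.0029). With the inhibitor on rJAG1 Jund fell by 0.36 (adjusted p = 0.012) and Fosb by 1.02 (adjusted p = 0.011, and 0.054 without rJAG1 with inhibitor 2). Fosb on rJAG1 differed from DMSO by 0.84 (adjusted p = 0.052, and 0.036 with the block). Fos fell with the inhibitor on rJAG1 by 0.75 (adjusted p = 0.047, and up to 0.2 in the 5 of 6 fits without 1 library that lost it, all but that without rJAG1 3). Fosl1 fell by 0.64 (adjusted p = 0.04), a call lost without any 1 of the 6 libraries, with an adjusted p of 0.061 to 0.12. The factors Ets1 and Gata6 moved in opposite directions with the inhibitor on rJAG1: Ets1 fell by 0.83 (adjusted p = 0.00058) and Gata6 rose by 0.49 (adjusted p = 0.0033).

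Of 23 other vasoactive genes 13, 13 and 12 were measured. Over Dll4 and Jag1 feeders at both times and after the inhibitor over feeders, 0 were called by limma, edgeR or DESeq2. At an unadjusted p under 0.05 there were 0 for Dll4 at 24 h, 1 for Jag1 at 24 h, 0 for Dll4 at 6 h, 1 for Jag1 at 6 h and 4 for the inhibitor. On rDLL4 1 of 12 rose and on rJAG1 2 of 12 rose, and 0 fell, against 3.5% and 9.58% of all genes called. With the block 2 rose on rDLL4, 3 rose and 1 fell on rJAG1, and 1 of 13 fell after the inhibitor over feeders. The block called 868, 2022 and 427 of all genes in these comparisons, in place of 469, 1285 and 118. With the inhibitor 1 rose and 3 fell on rDLL4 (2 rose and 4 fell with the block), and 2 rose and 2 fell on rJAG1 (2 rose and 4 fell with the block), against 10.7% and 18.4% of all genes called. The block called 2315 of all genes for the inhibitor on rDLL4 in place of 1430, and 3634 on rJAG1 in place of 2461. Gucy1b1, a subunit of the soluble guanylate cyclase that answers nitric oxide, was 44.1 ± 1.11 on rDLL4 and 45.9 ± 1.91 on rJAG1, against 34.6 ± 1.62 in DMSO (SD, n = 3 each). It rose by 0.34 on the log2 scale on rDLL4 (limma adjusted p = 0.0067) and by 0.40 on rJAG1 (adjusted p = 0.00073).

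Vegfa, the vascular endothelial growth factor gene, was 114 ± 9.43 on rJAG1 and 77.2 ± 10.8 in DMSO and rose by 0.57 (limma adjusted p = 0.0081). With the inhibitor on rJAG1 it fell by 0.58 (adjusted p = 0.0043). Ptgs2, the inducible cyclooxygenase, was 12.4 ± 1.40 with the inhibitor on rJAG1 and 29.5 ± 2.16 without it, and it fell by 1.19 (adjusted p = 0.0073). The 2 that rose with the inhibitor on rJAG1 were Gucy1a1, another subunit of that cyclase, and Agtr1a, an angiotensin receptor gene. Gucy1a1 was 113 ± 5.94 with it and 70.7 ± 5.17 without it, a rise of 0.68 (adjusted p = 0.017) that was lost without rJAG1 3, rJAG1 with inhibitor 1 or 2, where the adjusted p reached 0.053. Agtr1a was 2.36 ± 0.461 with it and 0.984 ± 0.340 without it, a rise of 0.76 (adjusted p = 0.023) that was lost without rJAG1 1, rJAG1 3, rJAG1 with inhibitor 2 or 3, where it reached 0.099.

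Around Edn1, 30 annotated genes lie within 1 Mb, of which 7 are protein-coding and 6 are listed in a table. Hivep1, a zinc finger gene, ends 108.9 kb before Edn1, and Phactr1, a regulator of actin and phosphatase, begins 372.6 kb after it. Of these 6, 0 were called by limma over Dll4 or Jag1 feeders at either time or on rDLL4 against DMSO, and of the 5 measured after RO4929097 over feeders, without Phactr1, 0 were called. In these comparisons edgeR and DESeq2 called 0 too, and 0 had an unadjusted p under 0.05. On rJAG1 limma called 0, and edgeR and DESeq2 called 1 each (1 at an unadjusted p under 0.05). Tmem170b, 660 kb before Edn1, rose with the inhibitor on rJAG1, 37.2 ± 3.43 with it against 25.7 ± 0.859 without it, by 0.52 on the log2 scale (adjusted p = 0.0007). On rJAG1 against DMSO its difference was −0.29 (adjusted p = 0.054, and 0.017 with the block). Nedd9, a scaffold protein gene, rose at 24 h against 6 h over GFP feeders by 0.84 (adjusted p = 6.9e-05).

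The genes with the pattern most like Edn1 were sought among 10648 genes with a mean signal of at least 4 in each table, by the mean of the Pearson correlations over the 18, 8 and 15 libraries of the 3 tables. The libraries of a table share groups, depth and library numbers, and the values are a description. Over all these genes the mean r ran from −0.41 at the 5th to 0.40 at the 95th percentile. The 5 most like were Styk1 (mean r 0.79), a kinase-like membrane protein gene, Mybl1 (0.78), a Myb transcription factor gene, Sema3a (0.76), a secreted guidance cue, Bdnf (0.75), a neurotrophin, and Crim1 (0.72), a membrane protein that binds bone morphogenetic proteins. The 5 most opposite were Rcan1 (−0.74), an inhibitor of calcineurin, Sqstm1 (−0.73), an autophagy receptor, Fgfr1 (−0.73), a fibroblast growth factor receptor, Hid1 (−0.72) and Dtnbp1 (−0.72), the dysbindin gene. By Spearman's rank measure, 2 of the 5 were shared in each set. Cd34 stood at rank 10 and Pcsk5 at rank 55 of the likeness. Without DMSO library 3, an omission chosen after seeing the data, 3 of the 5 most like and 2 of the 5 most opposite genes stayed among the first 5. Mybl1 was then first (mean r 0.82) and Styk1 second (0.78), and Crim1 had rank 22, its r in the third experiment being 0.59 in place of 0.75. Cd34 had rank 6 and Pcsk5 rank 38. For Fgfr1 the r in the third experiment was −0.57 in place of −0.80.

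Bdnf followed Edn1 most closely of these 5 in the first experiment (r 0.96 over 18 libraries). At 24 h its signal was 53.0, 55.0 and 54.0 over Dll4 feeders and 46.8, 48.7 and 51.1 over Jag1 feeders, against 61.4, 70.3 and 67.2 over GFP feeders. The 3 groups kept the order of Edn1 and did not overlap. In the third experiment r was 0.70 over 15 libraries, and 0.52 without DMSO library 3, which put Bdnf at rank 14.

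Styk1 had r of 0.79, 0.79 and 0.78 in the 3 experiments, and 0.76 in the third without that library. Within groups, over the deviations of libraries from their group means, its r was −0.02 in the first, 0.81 in the second and 0.74 in the third. On recombinant ligand its signal was 12.1, 12.0 and 14.5 on rDLL4 with inhibitor and 14.1, 13.4 and 14.8 on rJAG1 with inhibitor. It was 8.12, 7.96 and 9.55 on rDLL4 and 6.60, 4.38 and 6.16 on rJAG1, against 10.4, 9.60 and 17.5 in DMSO. The rJAG1 libraries lay below all others for Styk1, and, as for Edn1, DMSO library 3 was the highest.

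**Figure D5:**
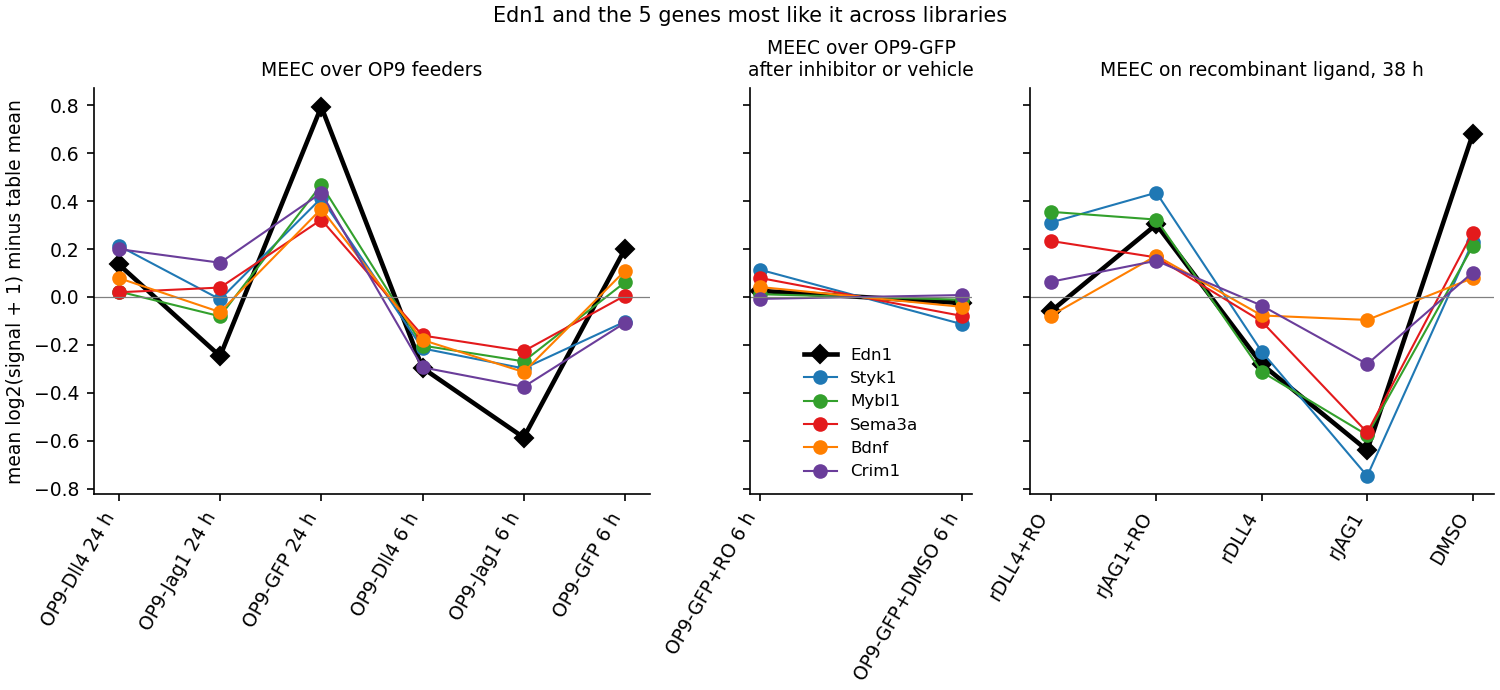
Group means of log2(signal + 1), less each gene's mean over its table (vertical axis), of Edn1 and the 5 genes most like it, with 1 panel per table and groups on the horizontal axis; the lines only join the points of a gene. Bdnf is near Edn1 in shape over the feeders (r 0.96 over 18 libraries), and on recombinant ligand Styk1 and Edn1 are both lowest on rJAG1.

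Cd34, a surface glycoprotein of endothelial and blood progenitors and a listed endothelial marker, moved in the direction of Edn1 over ligand feeders at 24 h and on recombinant ligand. It was 46.3 ± 4.09 over Dll4 feeders and 42.7 ± 1.90 over Jag1 feeders at 24 h, against 64.9 ± 5.59 over GFP feeders (SD, n = 3 each), and fell by 0.48 over Dll4 (limma adjusted p = 0.0072) and by 0.59 over Jag1 (adjusted p = 0.00042). On rDLL4 it was 45.2 ± 3.33 and on rJAG1 35.1 ± 0.796, against 68.4 ± 10.0 in DMSO, and it fell by 0.58 on rDLL4 (adjusted p = 0.0021) and by 0.93 on rJAG1 (adjusted p = 8.1e-06). After RO4929097 over GFP feeders Cd34 was 72.1 ± 12.7, against 54.9 ± 6.56 after DMSO (SD, n = 4 each). That log2 difference was 0.38 (limma adjusted p = 0.26, and 0.0054 with the block), where Edn1 differed by 0.05. The summed signal of the endothelial and endocardial markers at 24 h was 133 to 144 over Dll4 and 130 to 146 over Jag1 feeders, against 162 to 165 over GFP feeders, and in the third experiment 168 to 204 on rDLL4 and 148 to 161 on rJAG1, against 180 to 250 in DMSO. Cd34 is itself part of this sum. Over Jag1 feeders at 24 h the mean of Tek was also lower than over GFP feeders, 11.8 against 17.0. Nfatc1 was higher there, 9.11 against 8.57, as were Eng, 1.08 against 0.783, and Kdr, 9.11 against 7.33. The ranges overlapped for each of Tek, Nfatc1, Eng and Kdr. The part of these markers in the Edn1 level was not tested.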

How the data were processed

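Per the labels' protocols, total RNA (PicoPure kit) was made into NEBNext Ultra libraries. FastQC, cutadapt, RSEM and limma, with build GRCm38, are listed in the submitters' processing notes. The authors deposited 1 table of normalised signal per gene for each experiment. Whole reads were recovered from the signal in 41 of 41 libraries (tolerance 0.01 reads), and served only for edgeR, DESeq2 and depth. The deposited signal is on a linear scale, and limma 3.58.1 (R 4.3.3) was run on its log2 value with a pseudocount of 1, with a mean-variance trend and all groups of a table in 1 fit. P-values were adjusted (Benjamini-Hochberg) over all genes of a table. Fold changes on this scale understate the change of low genes. edgeR 4.0.16, DESeq2 1.42.0, other pseudocounts and scaling, filters, weights and left-out libraries were alternatives. The fits were tested on simulated data.

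Edn1 and the gene lists were chosen with earlier results of these data known. Named genes were all measured ligands and enzymes, at most 6 called members of each other list by adjusted p, all neighbours within 1 Mb, and the 5 most and least like genes. Same-numbered libraries within a time or experiment deviated together in all 46 pairs (r 0.12 to 0.79), so the numbers pair them. The main fit left this pairing out, and the library number as a block was an alternative. Over named and marker genes the block added 55 calls. A count of 0 called in the main fit hence holds for the unpaired fit only. Between 24 h and 6 h r ran from −0.02 to 0.35 over 9 pairs, not over 0.1 in each, so the numbers were not taken to pair the times. Within groups, chi-square per gene was 5.52 to 52.6 in 45 pairs, so each library counted as 1.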

Additional observations from a re-analysis of the deposited data

Results flagged for a closer look

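In the second experiment, whose groups hold 4 libraries, the library farthest from the others was looked at for the named and marker genes, and 6 of 94 groups had a library far apart by Dixon's criterion. Chance gives about 1 in 20 for independent groups, but genes of 1 library are not independent. After RO4929097 over GFP feeders Itpr1 had its lowest library at 123.4, Vegfa its highest at 34.11 and Kdr its highest at 11.24, all in library 2. Pdgfrb had a highest library apart in both groups, 26.95 after RO4929097 and 25.18 after DMSO, each in library 1. Mme had its highest library apart after DMSO, at 23.38, also in library 1. Edn1 had none. Of 108 tests of whether a named gene's ligand difference over feeders differed between 24 h and 6 h, 0 were called by limma at an adjusted p under 0.05.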

How the results depend on the processing

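Edn1 kept the sign of its difference under every alternative run in all comparisons but RO4929097 against DMSO over GFP feeders, where it kept it in 13 of 15 (−0.03 to 0.10 without 1 library). Its size moved by more than the spread between replicates in 1 case. Over Jag1 feeders at 24 h a pseudocount of 5 gave −0.89 on the log2 scale, in place of −1.04. The comparisons against DMSO on recombinant ligand moved further, but their spread includes DMSO library 3. Leaving out 1 library gave −1.52 to −0.95 for rJAG1 (−1.32 with all) and −1.19 to −0.59 for rDLL4 (−0.96). With inhibitor it gave −0.58 to −0.0049 for rJAG1 (−0.38) and −0.94 to −0.37 for rDLL4 (−0.74). The upper end of each was the fit without DMSO library 3. Counts of called endothelin-system genes moved more. For Jag1 feeders at 24 h (2) they were 5 with the replicate block, 11 with the block within time, 7 with library weights, 1 with only the compared groups, 0 among genes of mean signal of at least 4, and 0 to 6 without 1 library. For Dll4 feeders at 24 h (0) they were 1 with DESeq2, 1 with the replicate block, 4 with the block within time, 2 with library weights and 1 with only the compared groups. For rJAG1 (7) they were 11 with the replicate block and 11 with library weights. For rDLL4 (3) they were 7 with library weights, 1 with only the compared groups and 1 to 3 without 1 library. For rDLL4 with inhibitor against rDLL4 (7) they were 4 to 6 without 1 library. The causes were not tested, apart from the filter, which left out Edn2 and Itpr2. Of the fits of named genes that were called, 1801 alternatives kept the call, 181 lost it and 0 reversed. The library-weights fit of the first table stopped before its convergence tolerance. With the replicate block, the pairing of same-numbered libraries, all genes called numbered 628 in place of 281 for Jag1 feeders at 24 h, 247 in place of 71 for Dll4 feeders at 24 h, 427 in place of 118 for RO4929097, 2022 in place of 1285 for rJAG1 and 868 in place of 469 for rDLL4. Over named and marker genes it added 55 calls and ended 0, of which those of the main comparisons described stand beside them. Depth of 11.2 to 34.2 M reads (M, mega) limits what can be seen for genes as low as Edn2.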
